A study of Mus musculus with 7 samples.

Results

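The probes described here were low 24 h after a 12 h run and on no other array of a running series in mouse plantaris. Of the 16273 probes in the value table, 9023 had a ratio on all 7 arrays, and 141 of these had a log2 ratio at or below -1 on the P24h array and above -0.5 on each of the other 6 (1.56% of the 9023). The members were chosen by their measured log2 ratios on all 7 arrays, so their low level on P24h and their level near 0 elsewhere are a description and were not tested. No value on these arrays is independent of the choice.

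Total RNA of the plantaris was hybridised on 7 arrays with 2 dyes. Each array set the pooled RNA of 3 to 5 running mice, labelled with Cy5, against the pooled RNA of 8 untrained mice, labelled with Cy3. Some mice were killed as a run ended, a run of 3 h for the pool R3h and of 12 h for R12h. Others rested after a run of 12 h, for 3 h in P3h, 6 h in P6h, 12 h in P12h and 24 h in P24h, and R4w mice had run for 4 weeks. The labels give neither strain, sex nor age. Each condition had 1 array of pooled animals in 1 dye orientation, so no value has an error, and the array, the dye and the condition cannot be told apart. The number of arrays limits the precision. The ratio is likely running over untrained, since red over green is the usual order; under that reading a probe at -1 had 0.5 times the signal in the running pool. In bulk muscle, fewer cells of a type and less RNA per cell cannot be told apart, and ratios give no level by which markers could check the tissue.

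Plantaris is a hindlimb muscle of mostly fast fibres that flexes the foot. As background, a long run raises stress and metabolic transcripts in muscle, many of them during the first hours of rest, and much of this response has faded a day later. Later hours of rest are known for repair of fibres and refilling of glycogen.

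Gene names below are those the platform annotation gives a probe. Of the 141 members, 117 had 1 symbol, 1 had several and 23 had none. Probes that share a name did not share their values on P24h: Pearson's r between their P24h ratios was 0.04 for 1092 pairs of one symbol and 0.11 for 177 pairs of one accession. These are correlations across probes of 1 array, which are not independent. What a gene is known to do is given as background on the name, and the name is not shown to be the transcript measured.

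The members lay in a narrow band below the limit. On P24h their log2 ratios ran from -2.20 to -1.002 with a median of -1.17, while the median of the 9023 probes was 0.04. A median of -1.17 is a 2.24-fold difference, likely lower in the running pool, and higher there if the ratio runs the other way. Only 1 member lay at or below -2, 11 lay at or below -1.5, 35 more at or below -1.25, and 95 above that. Most members thus sat close to the limit that chose them. Where values of a probe are given from R3h to P12h below, they stand in the order of sampling, with R12h, P3h and P6h between these.

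On the other 6 arrays the members stayed near 0. Their medians were 0.07 (R3h), -0.01 (R12h), 0.05 (P3h), -0.08 (P6h), 0.01 (P12h) and -0.03 (R4w). For 39 of the 141, each of these 6 ratios was under 0.25 in size, a count not made for all 9023 probes. The 6 ratios were all above 0 for 17 members, all below 0 for 16, and of mixed sign for 108. P6h leaned lowest, with 93 members below 0 there (66.0%, against 50.9% of the 9023 probes), and it was the lowest of the other arrays for 53 members. The count of 53 has no counterpart made for all 9023 probes. Among these 6 arrays, the 10th percentile of the 9023 probes was also lowest on P6h, at -0.48. R3h leaned the other way, with 90 members above 0 and 36.2% below 0, against 49.7% of the 9023 probes below 0. The rule drops values at or below -0.5 on these arrays, so it shapes these counts.

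**Figure D1:**
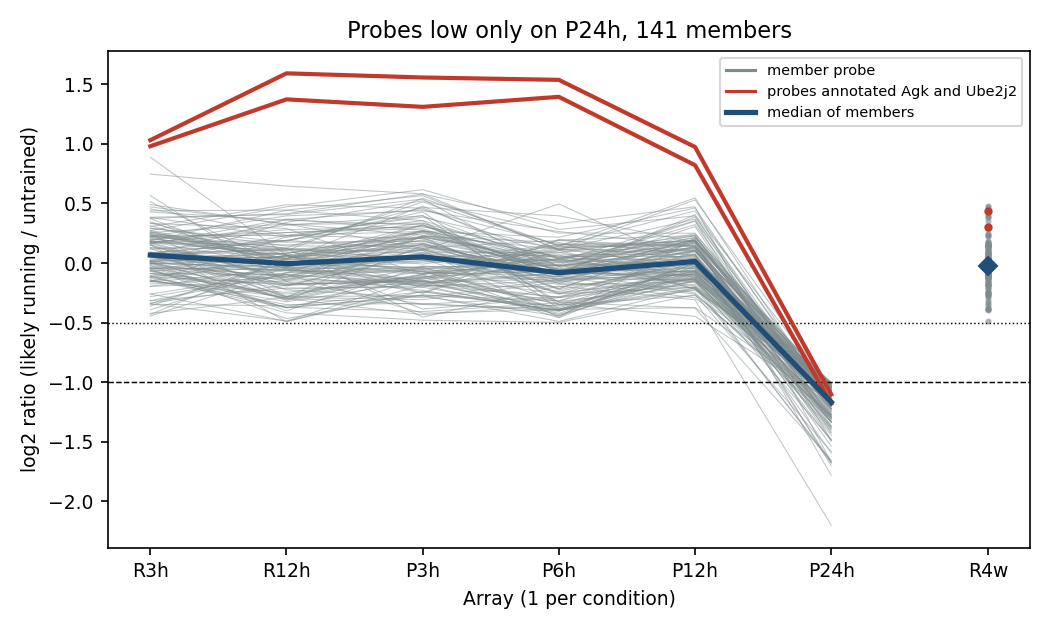
Log2 ratio of each of the 141 members (grey lines) on the 6 single-run arrays in sampling order, spaced evenly, and on R4w (points), with the median of the members in blue and the probes annotated Agk and Ube2j2 in red. The dashed line is -1 and the dotted line -0.5; the median stays between -0.08 and 0.07 on the 6 other arrays and is -1.17 on P24h.

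The step to low values lay in the last interval sampled. Between P12h and P24h the members' ratio changed by -2.14 to -0.71, with a median of -1.22, while the median of all 9023 probes changed by 0.02. In 115 of the 141 the difference was -1 or lower. Both arrays share the control pool, and the rule fixes most of this step.

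P24h was also the array with the widest values, and the count of members moved with that width. The median absolute deviation (MAD) of the 9023 probes was 0.28 on P24h and between 0.16 (R4w) and 0.22 (P6h) on the others. The spread on P24h was wider downwards, with 0.65 from the median to the 10th percentile and 0.50 to the 90th. P24h had 30.5% of its probes listed at 0, taken as no ratio, against 16.1% to 41.7% on the other arrays. Of the 9023 probes, 335 were at or below -1 on P24h (3.71%), and the members were 42.1% of these. At 1 or above on P24h stood 126 probes (1.4%).

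After scaling of all arrays to a common MAD, 24 probes met the rule (0.266%), 23 of which were among the 141. The scaling multiplies P24h by 0.742, so a deposited value of -1.35 becomes -1. Of the 118 members that dropped out, 117 came above -1 on P24h, and 8 fell to -0.5 or lower on another array, 7 of them the same probes. Probes at or below -1 on P24h then numbered 123 (1.36%), a share near that of R3h (2.11%), R12h (1.45%), P6h (1.60%), P12h (1.14%) and R4w (1.31%). P3h had 0.432%. The part of the array's width in the low values of the other 118 was not tested.

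Fewer probes met the same rule with another array in the place of P24h. As deposited, 14 probes were low only on P6h, 2 only on R12h, 1 only on R3h, 1 only on R4w, and 0 on P3h and P12h, 18 in all. After scaling there were 9 for P6h, 6 for R3h, 4 for R4w, 2 for R12h and 0 for P3h and P12h, against 24 for P24h. As a share of the probes at or below -1 on the same array, the probes low there alone were then 19.5% on P24h, 6.25% on P6h and 3.39% on R4w. With scaling by each array's own lower tail, chosen after the data were seen, 6 probes met the rule on P24h and 8 on P6h, so the order of these arrays turned. The mirror rule, which asks for values at or above 1 on 1 array and below 0.5 on the rest, found 3 probes for P24h as deposited and 1 after scaling. It found 7 and 13 for R3h, 2 and 9 for R4w, and at most 2 for each of the other arrays under either setting.

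**Figure D2:**
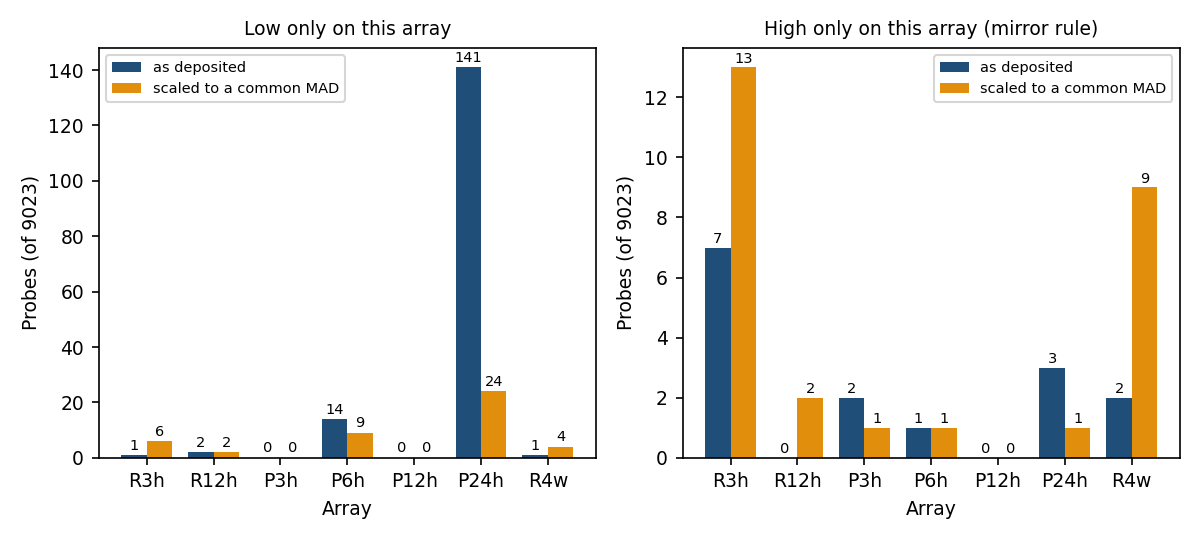
Number of the 9023 probes that met the rule on each array in turn, for low values (left) and for high values by the mirror rule (right), as deposited (blue) and after scaling to a common MAD (orange); the vertical axes differ. The left panel has 141 and 24 probes for P24h and at most 14 for any other array, and the right panel has 3 and 1 for P24h.

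The lowest member was probe 16352, annotated Pwp1, a WD repeat protein. Its log2 ratio was 0.25, 0.12, -0.45, -0.19 and -0.31 from R3h to P12h, -2.20 on P24h and -0.01 on R4w. It already stood below 0 on the 3 arrays before P24h. Probe 57, with no symbol, followed at -1.78. On R4w it was at -0.40, which scaling moved past -0.5, so it was a member as deposited only.

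The next lowest members with a name were flat or slightly above 0 until P24h. Probe 5852 is annotated Ndn, the imprinted growth suppressor necdin, and had 0.18, 0.26, 0.31, 0.01 and 0.18 from R3h to P12h, -1.70 on P24h and -0.27 on R4w. Probe 11207 is annotated Gal, the neuropeptide galanin, and had 0.07, 0.12, 0.08, -0.08 and 0.07 from R3h to P12h, then -1.68 on P24h and -0.00 on R4w. The Gal probe thus stayed between -0.08 and 0.12 off P24h. Lower down, probe 442, annotated Gnao1, a G protein alpha subunit abundant in brain, had 0.24, -0.28, -0.03, -0.06 and 0.07 from R3h to P12h, -1.54 on P24h and -0.32 on R4w.

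Probe 18381, annotated Fthl17e, a ferritin heavy chain-like gene, had the widest distance between P24h and its next lowest array. Its log2 ratio was 0.37, 0.41, 0.58, 0.33 and 0.47 from R3h to P12h, -1.67 on P24h and 0.23 on R4w, a distance of 1.90. It was above 0 on each of the other 6 arrays. Over all members this distance ran from 0.52 to 1.90 with a median of 0.99.

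The rest of the 10 lowest named members were annotated Ppil2, Wdr31, Slc7a11, Fbxw5 and Rdm1. Probe 13700 (Ppil2, a cyclophilin-like protein) had 0.35, -0.05, -0.13, -0.01 and 0.01 from R3h to P12h, -1.59 on P24h and 0.39 on R4w. Probe 10529 (Wdr31) was below 0 throughout, at -0.11, -0.42, -0.48, -0.50 and -0.26 on the arrays up to P12h, -1.58 on P24h and -0.35 on R4w. That P6h value, -0.498, is the closest of any member to the limit of -0.5. Probe 13733 (Slc7a11, the transport subunit of the cystine and glutamate exchanger) stayed between -0.18 and 0.02 on the other 6 arrays and was at -1.49 on P24h. Probe 13615 (Rdm1) was at -1.48 on P24h, after 0.32 to 0.43 on R3h, R12h, P3h and P12h, -0.03 on P6h and 0.06 on R4w.

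Members that also met the rule after scaling were the lowest on P24h as deposited, from -2.20 (Pwp1) to -1.37 (Pfkl), except for probe 57. Besides the probes annotated Pwp1, Ndn, Gal, Fthl17e, Ppil2, Wdr31, Gnao1, Slc7a11, Fbxw5 and Rdm1, they were those annotated Lrguk, Pdcd7, Letm1, Prdx2, Mapkapk2, Uck2, Psmb4, Cox17 and Pfkl, and probes 18233, 12142, 16018 and 6632, which have no symbol. The 1 probe that joined was 16914, annotated Slc15a2, a peptide transporter. It had -1.46 on P24h and was kept out as deposited by -0.508 on P6h. Under each of the scalings and centrings tried, 6 members stayed: the probes annotated Ndn, Gal, Fthl17e and Ppil2, and probes 18233 and 12142.

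**Figure D3:**
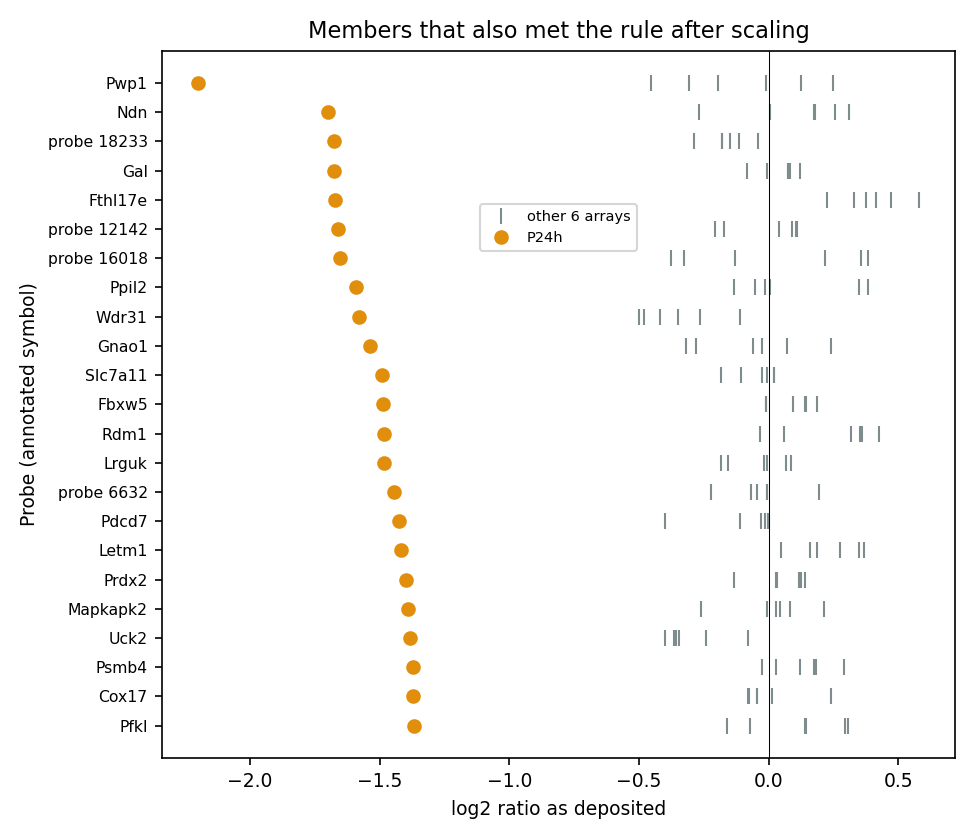
Log2 ratio as deposited of the 23 members that also met the rule after scaling, on P24h (orange points) and on the other 6 arrays (grey ticks), ordered by P24h. The P24h points lie between -2.20 and -1.37, apart from the ticks in each line.

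A pair of members had been high on each array before P24h. Probe 13391, annotated Agk, a lipid kinase of mitochondria, had 1.03, 1.59, 1.56, 1.54 and 0.97 from R3h to P12h, -1.10 on P24h and 0.43 on R4w. Probe 12107, annotated Ube2j2, a ubiquitin-conjugating enzyme of the endoplasmic reticulum, had 0.98, 1.37, 1.31, 1.39 and 0.82 on the same 5 arrays, -1.18 on P24h and 0.30 on R4w. Both stood between 0.82 and 1.59 on the 5 earlier arrays and below -1 on P24h. They were the only 2 members to reach 1 on any other array, and 14 members reached 0.5. These counts over any other array have no counterpart made for all 9023 probes, so they are not shown to be few or many. Array by array, between 13 (R4w) and 204 (P3h) of the 9023 probes were at or above 1 on the other arrays. Neither the Agk probe nor probe 12107 remained after scaling. Another probe annotated Ube2j2 (9937) lay between -0.33 and -0.05 from R3h to P12h and at 0.12 on P24h. A further one (18317) lay between 0.20 and 1.05 from R3h to P12h and at 0.38 on P24h.

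The members were then followed through 24 groups of names. These groups were written with earlier results of these data known, and they hold 1459 of the measured probes and 20 members. In 12 groups there was 1 or more member and in 12 there was none. A group holds only the names written into it, so a group without members does not speak for every gene of that kind. The share of members over all 9023 probes was 1.56%, which in a group of 100 comes to a member or a pair, so small counts in a group say little.

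For the ubiquitin and proteasome group, which marks and degrades proteins, 3 of 137 measured probes were members (2.19%). Probe 18504 (Fbxw5, a substrate receptor of ubiquitin ligases) had 0.19, 0.09, -0.01, 0.14 and 0.14 from R3h to P12h, -1.49 on P24h and -0.01 on R4w. Probe 7870 (Psmb4, a beta subunit of the proteasome core) had 0.29, 0.18, 0.18, -0.03 and 0.12 from R3h to P12h, -1.37 on P24h and 0.03 on R4w. Both also remained after scaling, whereas the Ube2j2 probe did not. The median of the 137 probes on P24h was 0.02.

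The groups of energy metabolism gave 3 members. The members annotated Cox17, Timmdc1 and Dmac2, also mitochondrial names, are in none of these groups. They were at -1.37, -1.23 and -1.04 on P24h. These members were picked after their values were seen, and mitochondrial names outside the groups were not counted. Of the oxidative phosphorylation and citric acid cycle probes, 2 of 53 were members (3.77%). Probe 12020 (Ndufb10, a subunit of respiratory complex I) had 0.26, 0.04, 0.27, -0.04 and 0.22 from R3h to P12h, -1.07 on P24h and 0.05 on R4w. Probe 11485 carries the name of a pseudogene, Atp5k-ps1, and was at -1.33 on P24h and between -0.31 and 0.16 elsewhere. Of the glycolysis and glycogen probes, 1 of 39 was a member (2.56%), annotated Pfkl, the liver form of phosphofructokinase, with -1.37 on P24h and between -0.16 and 0.31 elsewhere. On P24h, 3 of the 53 and 3 of the 39 were at or below -1, members included, and the group medians were 0.03 and 0.04. Of the 31 probes of fatty acid uptake and oxidation, 0 were members, and 1 was at or below -1 on P24h.

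The contractile and calcium groups also hold names that are not specific to muscle. Of 38 contractile and sarcomere probes 1 was a member (2.63%), and of 120 calcium handling and excitation probes 2 were (1.67%). The first was probe 11179 (Myl10, a myosin regulatory light chain), with 0.37, -0.05, -0.17, -0.38 and -0.03 from R3h to P12h, -1.04 on P24h and -0.09 on R4w. The others were probe 17619 (Cacna1a) at -1.13 and probe 18414 (Cacna1g) at -1.03 on P24h, both named for pore subunits of voltage-gated calcium channels. On the other arrays the Cacna1a probe reached -0.47 and the Cacna1g probe -0.05 at the lowest. Outside the fixed groups, probe 14348 is annotated Clcn1, the chloride channel of skeletal muscle, and was named after its values were seen. It had -0.01, -0.12, 0.23, 0.17 and -0.11 from R3h to P12h, -1.18 on P24h and -0.05 on R4w. Another probe of that name (8208) was at 1.65e-05 on P24h, and another Cacna1g probe (14461) at 0.53. The first of these values is under the alternative size limit of 0.01, so it may not be a measured ratio.

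Stress, translation and transport groups gave 1 or 2 members each. Of 30 metallothionein and oxidative stress probes, 1 was a member (3.33%), annotated Prdx2, a peroxiredoxin that removes peroxides, with -1.40 on P24h and between -0.13 and 0.14 elsewhere. Heat shock and chaperones had 1 of 45 (2.22%), annotated Dnaja1, a partner of heat shock proteins, at -1.05 on P24h and -0.44 on P6h. Ribosome and translation had 1 of 96 (1.04%), annotated Mrps6, a mitochondrial ribosomal protein, at -1.15 on P24h after 0.08 to 0.47 on the other single-run arrays. Of 146 solute carrier probes, 2 were members (1.37%): the Slc7a11 probe and probe 12080 (Slc38a4, an amino acid transporter), the latter at -1.28 on P24h and between -0.26 and 0.09 elsewhere. All of these groups had medians between -0.05 and 0.04 on P24h.

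Markers of other cells and of the matrix had shares of members from 0 to 1.16%, against 1.56% of all probes. Cytokines, chemokines and receptors had 2 of 173 (1.16%), the chemokine probes annotated Ccl20 and Ccl4, at -1.16 and -1.06 on P24h. The Ccl20 probe was also at -0.43 on R3h and -0.49 on R4w, while the Ccl4 probe stayed between -0.19 and 0.12. The extracellular matrix had 1 of 100 (1%), annotated Mmp23, a metalloproteinase, at -1.17. Macrophage and leukocyte markers had 0 members of 84, endothelial markers and angiogenesis 0 of 30, adipocyte markers 0 of 9, erythroid markers 0 of 12, and Schwann cell and nerve markers 0 of 7. The medians of the macrophage, endothelial and adipocyte groups on P24h were 0.11, 0.11 and 0.35. Over these last 5 groups together, 1 probe was at or below -1 on P24h, in the macrophage and leukocyte group. That group is not complete. The members annotated Tpsab1, Klrg1, Cd7 and Sh2d1b1, also names of leukocyte genes, are outside it, at -1.19, -1.16, -1.05 and -1.04 on P24h. They were picked after their values were seen, and leukocyte names outside the group were not counted. Other probes of these names, in the same order, were at 0.34, -0.11, -0.82 and 0.30 on P24h.

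Olfactory and vomeronasal receptors, known from sensory neurons, had the largest share of the groups, with 3 of 69 (4.35%). Probe 11461 (Olfr653) had -0.12, 0.07, -0.21, 0.20 and 0.06 from R3h to P12h, -1.16 on P24h and 0.40 on R4w. Probes 15082 (Olfr27) and 16109 (Olfr155) were at -1.02 and -1.004 on P24h. Of the 3, 0 remained after scaling. The other groups with 0 members were zinc finger transcription factors (78 probes), immediate early genes (9), cell cycle and proliferation (110), the circadian clock (8), myogenic regulators and growth (34) and glucocorticoid responsive genes (12). In the cell cycle group, 5 probes were at or below -1 on P24h and each had another array at or below -0.5. The members annotated Hus1 and Zwint, also names of cell cycle genes, are outside that group, at -1.28 and -1.14 on P24h. They were picked after their values were seen, and cell cycle names outside the group were not counted. Another Zwint probe (8683) was at 0.07 on P24h.

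Most other probes with a member's name were not low on P24h. For 28 members, 31 other probes of the same symbol had a ratio on all 7 arrays. On P24h their median was 0.08, 21 of the 31 were above 0, and 1 was at or below -1. Over all 9023 probes the median was 0.04 and 3.71% were at or below -1. None of the 31 was a member. Beside the Gal member at -1.68 on P24h, the other Gal probe (10666) was at 0.65, and beside the Wdr31 member at -1.58 the other probe (1339) was at 0.12. The other probes of Slc7a11, Letm1, Pde7b and Ikbkb were at -0.06, -0.51, -0.36 and 0.17, where the members were at -1.49, -1.42, -1.34 and -1.30. Letm1 is known as an ion exchanger of the mitochondrial inner membrane, Pde7b as a phosphodiesterase of cyclic AMP, and Ikbkb as a kinase that activates NF-kappaB.

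A single name had both probes at or below -1 on P24h. Of all 9023 probes 3.71% were that low, so 1 such case among 31 other probes says little. The member 4326, annotated P3h1, a collagen prolyl hydroxylase, was at -1.19 on P24h, and probe 1912, which carries the same accession, was also at -1.19. They differed elsewhere: the member lay between 0.02 and 0.55 on the other 6 arrays and probe 1912 between -0.61 and -0.35. Probe 1912 was kept out by R3h (-0.61) and R4w (-0.52), and its other 4 arrays were above -0.5.

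The limit of -1 cut through a continuous range. Just inside it lay the probes annotated Prmt5, Alox12e and Olfr155, at -1.002, -1.004 and -1.004 on P24h. Just outside lay those annotated Cbx6, Dhx9 and Arhgef12, at -0.998, -0.997 and -0.996. The Cbx6 probe had been at 0.27 to 0.73 on the other 6 arrays. At the limit of -0.5 the closest members were the Wdr31 probe, the Pald1 probe (-0.493 on R12h) and the Ncbp3 probe (-0.490 on P6h). Probe 10999, annotated Gfi1, a transcriptional repressor of blood cells, missed it with -0.502 on P6h, although it stood at -1.72 on P24h, lower than all members but the Pwp1 probe and probe 57. The Slc15a2 probe (-0.508) and the Hs2st1 probe (-0.511), both on P6h, came next.

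**Figure D4:**
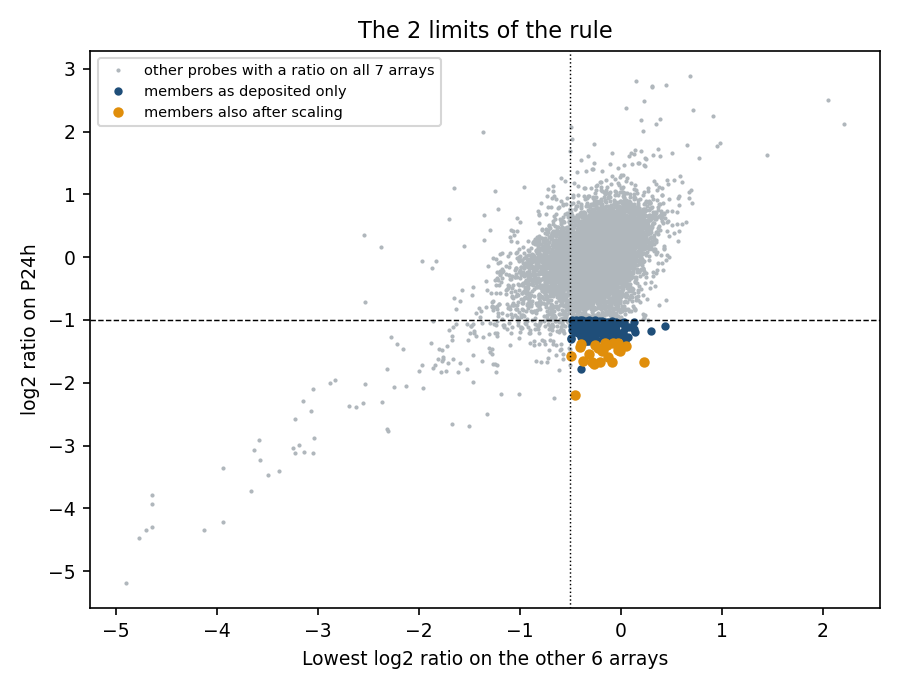
Log2 ratio on P24h against the lowest log2 ratio on the other 6 arrays for the 9023 probes, with the rule's limits at -1 (dashed) and -0.5 (dotted). Members fill the lower right corner, those also found after scaling (orange) lie at -1.37 or lower on P24h, and probes left of the dotted line were at or below -0.5 on at least 1 other array.

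The 194 probes that were at or below -1 on P24h without being members were at or below -0.5 on at least 1 other array. One other array at or below -0.5 kept 44 of them out, and for 25 of the 44 that array was P6h. It was R12h for 10, P3h for 6, and R3h, P12h and R4w for 1 each. At the other end, 38 of the 335 were at or below -0.5 on all 7 arrays and 45 on all but 1. The remaining 67 passed that limit on 2 to 4 of the other arrays.

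Members were spread along the value table but not evenly. The table was split into 6 parts of equal length by probe number. Of the probes measured in each, 1.02%, 1.12% and 1.01% were members in the first 3 parts in turn, 2.54% and 2.41% in the next 2, and 1.5% in the last. The share at or below -1 on P24h ran from 2.81% to 4.82%, and was highest in the same 2 parts. The MAD on P24h was 0.26 to 0.27 in the first 3 parts and 0.28 to 0.29 in the last 3. No 2 members were neighbours among the measured probes, and 4 pairs lay within 5 probe numbers. How probe numbers lie on the array is not given in the sources used here, and whether position plays a part was not tested beyond subtracting a running median of neighbouring probes, which left 129 of the 141 and gave 160 in all.

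**Figure D5:**
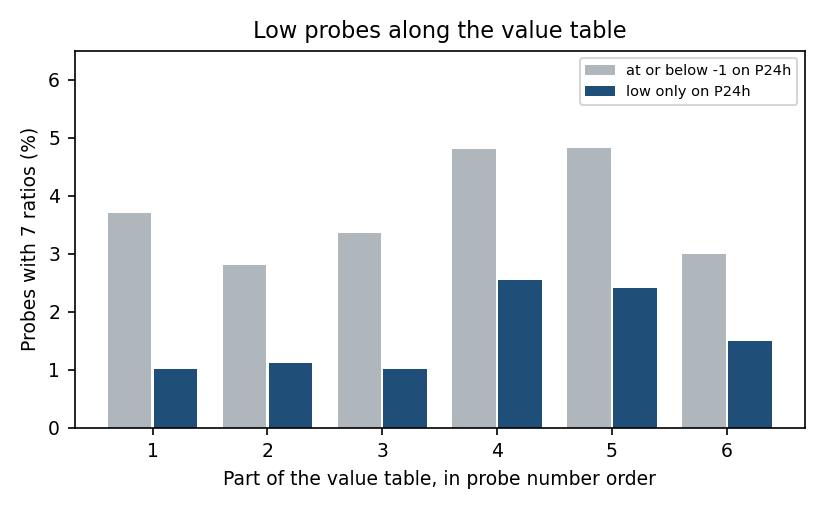
Share of the measured probes that were at or below -1 on P24h (grey) and that were low only on P24h (blue), for 6 parts of the value table in order of probe number. The blue bars reach 2.54% and 2.41% in parts 4 and 5 and lie between 1.01% and 1.5% in the others.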

How the data were processed

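Plantaris RNA pools were compared on 7 arrays. For each probe the table deposited by the authors gives 1 log2 ratio per array; how the authors corrected background, normalized or centred them is not given in the sources used here, and the direction is not stated. The base was taken from the smallest values above 0. The median of all deposited values was 0 on each array, and over the 9023 probes with a size above 1e-12 on all 7 arrays it lay between -0.01 (R4w) and 0.04 (P24h). Scaling divided each array by its median absolute deviation over these probes and multiplied it by the median of the 7. Probes were named through the platform annotation, and the 117 symbols of members were checked through the gene identifier against RefSeq names. The rule, the groups of names and the naming rule were chosen with earlier results of these data known. The naming rule takes the 10 lowest named members, the 5 with the widest distance to the next array, those at the limits, up to 2 per group and 6 with a repeated name. The Clcn1 probe and the members named as outside a group were picked after their values were seen. No test was made, since each condition has 1 array and all arrays chose the members. The code that applies the rule was tested on simulated data with planted members, which says nothing about the members found here. Probe sequences were not used here. Values were computed with Python 3.11.15, pandas 2.3.3 and numpy 2.4.6. Alternatives were other limits, scalings and centrings.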

Additional observations from a re-analysis of the deposited data

How the results depend on the processing

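The number of probes low only on P24h was 141. It rested on the scale of the arrays: 24 with a common MAD, 27 with the MAD over every probe with a ratio, and, both chosen after the data were seen, 18 with quantile normalization and 6 with scaling by the lower tail. A P24h limit of -0.8 gave 276 and one of -1.2 gave 56, with medians on P24h of -1.005 and -1.33, and a limit of -0.3 on the other arrays gave 91. Centring on the median (160), a limit of -0.7 (181), averaging by symbol (115), a size above 0.01 (114) and a ratio on at least 4 other arrays (148) stayed within 1.5 times. Leaving out each other array in turn gave 142 to 172, the highest without P6h, with medians of -1.17 to -1.16 on P24h. The number low only on another array, 18 in all, was 11 with the MAD over every probe with a ratio and 14 to 21 under the other scalings and centrings. No paired analysis was possible because each condition has 1 array. Depth and signal over background are unknown, since no intensities were used.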

Other observations

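Allowing a missing ratio on up to 2 of the other arrays added 7 probes, annotated Rbmx, Prdm1, Cit, Arr3, Pcsk7, Csn1s2a and Commd9. Of these, 6 had no ratio on P6h, the array with the most probes at 0. Their P24h values ran from -1.25 (Rbmx) to -1.03 (Commd9).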
